A study of Mus musculus with 12 samples.

Results

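Transcripts of 10 genes of the p53 pathway were measured by RNA-seq in cultured embryonic stem cells (ESCs) of the mouse, which are pluripotent. The 10 are Trp53, its regulator Mdm2 and the p53 target genes Bax, Bbc3, Pmaip1, Trp53inp1, Ccng1, Phlda3, Sesn2 and Zmat3, chosen by name as p53 pathway genes out of 23496 genes in the deposited table. All 10 were tested, among 12329 genes that reached 1 FPKM in at least 4 libraries. The unit is FPKM, the fragments of a transcript divided by its length in kilobases and by the number mapped in the library.

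There were 12 libraries, 4 per group. In the first group, wild-type cells grew in 2i, a medium that holds LIF (1000 units/mL), a cytokine that sustains self-renewal, and blocks 2 kinases: GSK3, with 3 µM CHIR99021, and MEK, with 1 µM PD0325901. The second group, also in 2i, is labelled knockout for Tfcp2l1, whose product is a CP2-type transcription factor that helps to keep ESCs undifferentiated. The third group was wild type again, in a medium of 15% fetal bovine serum (FBS) plus LIF (1000 units/mL). The ESC line, the number of clones and the deleted part of Tfcp2l1 are not given in the sources used here. Whether the libraries of a group are separate cultures is not stated either, and the p-values below then speak only of the spread among libraries, which may be technical.

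The p53 protein is a transcription factor that is held at a low level by MDM2, a ubiquitin ligase whose own gene p53 activates. Stress such as DNA damage frees p53, which then raises genes for growth arrest, cell death, repair and metabolism. In ESCs, p53 transcript and protein are known to be abundant, and p53 activity is linked to differentiation.

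As a check of the libraries, relative read depth, read from the step that a single fragment adds to low values, ran from 0.685 to 1 of the deepest library. Tfcp2l1 stood at 132 ± 13.8 FPKM for wild type in 2i and 78.9 ± 5.92 in the knockout (SD, n = 4), so the transcript was present in the libraries labelled knockout, and its level does not by itself check that label. ESC markers were present in all libraries, with Pou5f1 between 705 and 992 FPKM. In the knockout 6 of 10 ESC markers fell and none rose by limma; Nanog went from 578 ± 23.7 to 390 ± 14.1 FPKM (SD, n = 4), and the summed level was 4285 to 4971 FPKM in wild type in 2i, 3956 to 4148 in the knockout and 3226 to 4241 in FBS. Of 20 fibroblast markers, 16 rose and 1 fell in the knockout, and 12 were higher and 5 lower in 2i than in FBS. Over all genes tested, 24% rose and 21.4% fell in the knockout, and 37.1% were higher and 35.3% lower in 2i. Col1a1 lay at 51.9 to 85.1 FPKM for wild type in 2i, 103 to 167 in the knockout and 21.9 to 31.0 in FBS. No fibroblast marker was at 0 in all libraries. Their summed level was 886 to 1015, 904 to 1317 and 371 to 462 FPKM in the 3 groups.

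RefSeq (GRCm38.p6) promoters were taken for 7 of the 10 genes, all but Pmaip1, Trp53inp1 and Zmat3, as 250 bases before to 50 after the start of a transcript. Each was searched on both strands for the p53 half-site, a 10-base palindromic consensus (purines, then C, A or T, A or T and G, then pyrimidines) that p53 binds in pairs. An exact half-site was present in 4 of the 7, against 8.36% of 32851 promoters of the same length. They are shown because they hold such a site, and they belong to Trp53, Mdm2, Bax and Ccng1. Cdkn1a, the best known p53 target, is added for comparison. A link of these sites to expression was not tested. Capitals mark exact half-sites and, in Bax and Ccng1, the partner site of a pair.
Trp53: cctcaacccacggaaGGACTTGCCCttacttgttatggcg
Mdm2: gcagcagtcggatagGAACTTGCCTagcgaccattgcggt
Bax: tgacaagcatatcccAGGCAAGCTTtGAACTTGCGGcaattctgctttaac
Ccng1: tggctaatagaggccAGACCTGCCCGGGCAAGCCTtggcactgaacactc
Cdkn1a: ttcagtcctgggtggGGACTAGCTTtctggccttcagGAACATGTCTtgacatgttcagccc

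These stretches lie at chr11:69580269-69580308 (plus strand), chr10:117710920-117710959 (minus), chr7:45467064-45467114 (minus), chr11:40755447-40755496 (minus) and chr17:29090891-29090952 (plus). The exact half-site begins 75 bases before the start in Trp53, 186 in Mdm2, 201 in Bax and 185 in Ccng1. A pair of half-sites with a spacer of up to 13 bases and at most 2 mismatches in all was present in Bax, with 2 mismatches and a spacer of 1 base, and in Ccng1, with 1 mismatch and no spacer. In the upstream window of Cdkn1a, the 2 exact half-sites formed such a pair, with 0 mismatches and a spacer of 12 bases. Such a pair was found in 4.09% of the 32851 promoters, so the sequence alone is not rare. Neither motif was found in the windows of Bbc3, Phlda3 or Sesn2 or in the downstream window of Cdkn1a, and these windows do not cover sites in introns.

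The knockout comparison called 4 of the 10 genes, which moved in both directions by small amounts. Zmat3, Trp53inp1 and Pmaip1 rose by 17.4%, 16.7% and 22.1% of their wild-type mean, and Ccng1 fell to 0.836 of it. The other 6, Trp53 among them, did not pass. At a limma adjusted p under 0.05, 3 of 10 rose, where 24% of all genes tested rose, 1 fell (21.4% of all genes), and 4 in all were called (45.3%). The share of the pathway genes is thus near that of all genes and does not set them apart. Their median log2 change was 0.09, against 0.01 over all genes, and their median absolute log2 change was 0.17, the same as over all genes (0.17).

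More of these genes were called between 2i and FBS than in the knockout, as was true of all genes tested. In wild-type cells, Phlda3 and Sesn2 were higher in 2i than in FBS, by 1.65-fold and 1.57-fold, and Trp53inp1, Ccng1 and Mdm2 were higher by 1.37-fold, 1.22-fold and 1.12-fold. Trp53 itself and Zmat3 were lower in 2i, at 0.688 and 0.848 of the FBS level. Bax, Bbc3 and Pmaip1 did not pass. Here 5 were higher (37.1% of all genes tested), 2 were lower (35.3%) and 7 of 10 in all were called (72.4%), again a share near the background. The median absolute log2 difference of the 10 was 0.25, against 0.35 over all genes. Both comparisons share the wild-type libraries in 2i.

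**Figure D1:**
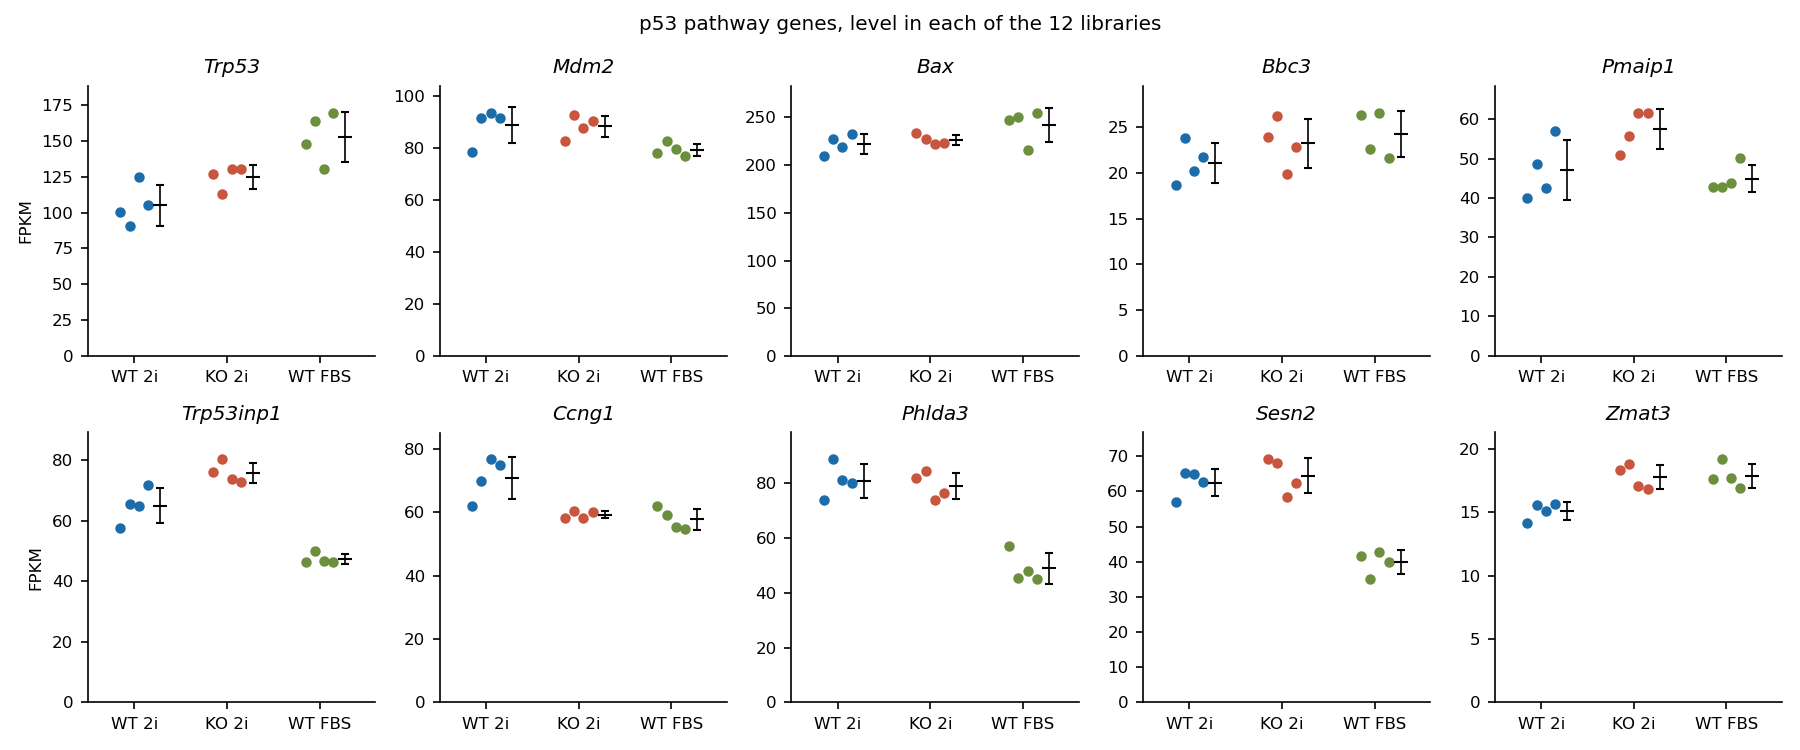
Level in FPKM (y axis, from 0) of each of the 10 genes in the 4 libraries of wild type in 2i (WT 2i), knockout in 2i (KO 2i) and wild type in FBS (WT FBS). Points are libraries, and bars are the mean ± SD. Phlda3, Sesn2 and Trp53inp1 are lowest in FBS, with no overlap, whereas Trp53 is highest there.

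**Figure D2:**
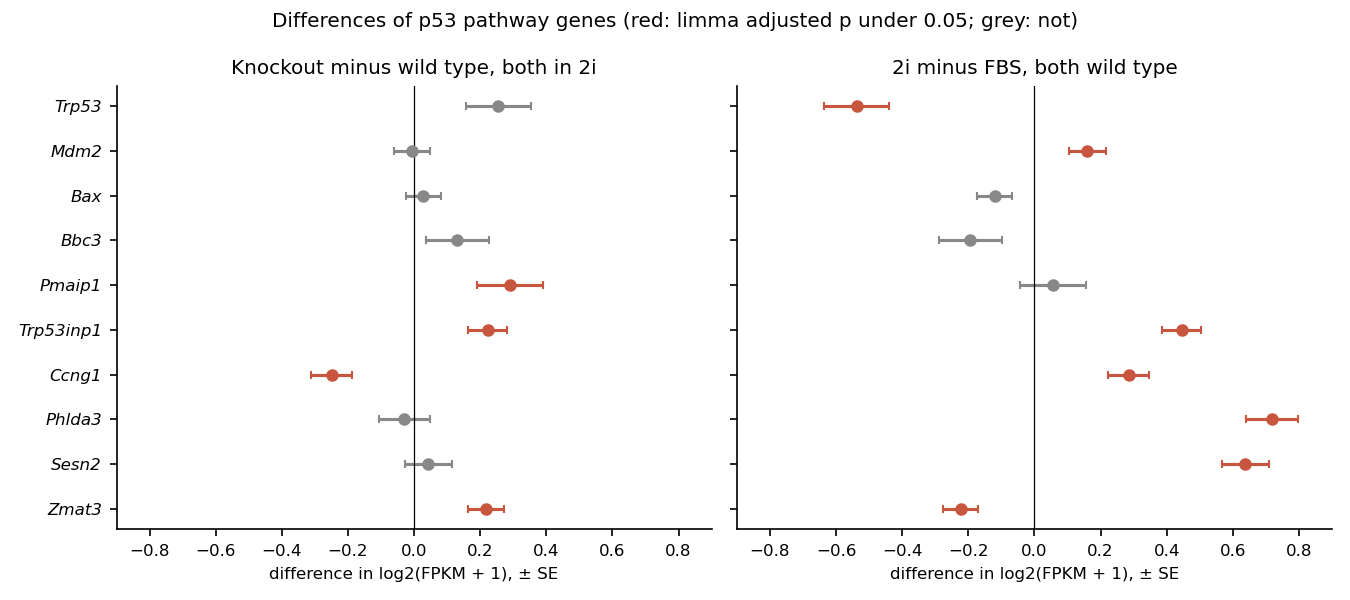
Difference in log2(FPKM + 1) with its SE (x axis) for each gene in the knockout against wild type in 2i (left) and in 2i against FBS in wild type (right). Red genes passed a limma adjusted p of 0.05: 4 on the left and 7 on the right.

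Trp53 encodes p53 (NM_011640 and NM_001127233; mm9, chromosome 11, 69393861 to 69405375). It stood at 100.4, 90.4, 124.6 and 105.5 FPKM for wild type in 2i, at 126.7, 112.9, 130.7 and 130.3 in the knockout, and at 147.8, 164.0, 130.4 and 169.6 in FBS. Every FBS library lay above every wild-type library in 2i, whereas the knockout overlapped both. The transcript was lower in 2i than in FBS (log2 difference -0.54, SE 0.10, limma adjusted p = 0.000293). Against wild type in 2i the knockout gave a log2 change of 0.26 (SE 0.10, limma adjusted p = 0.0506), which did not pass; 9 of 25 alternative settings passed. Without wild type in 2i replicate 3, the highest library of its group, the log2 change was 0.34 (limma adjusted p = 0.00781). It also passed without knockout replicate 2 (0.0383) or FBS replicate 3 or 4 (0.0324 and 0.0478).

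Mdm2, the ubiquitin ligase that restrains p53, hardly varied (NM_010786; mm9, chromosome 10, 117125961 to 117147772). Its levels were 78.8, 91.8, 93.6 and 91.8 FPKM for wild type in 2i, 83.0, 92.7, 87.7 and 90.4 in the knockout, and 78.3, 82.7, 79.6 and 77.1 in FBS. Wild type in 2i overlapped FBS through replicate 1 alone, and all knockout libraries lay above all FBS libraries. The difference between 2i and FBS was 0.16 on the log2 scale (SE 0.06, limma adjusted p = 0.0205). It did not pass with wild type in 2i replicate 2, 3 or 4 left out (0.0527, 0.0549 and 0.055) or FBS replicate 4 left out (0.0512). The knockout change was -0.01 (SE 0.06, limma adjusted p = 0.933).

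Bax was the most abundant of the 10 (NM_007527; mm9, chromosome 7, 52717065 to 52722268); its product permeabilizes the outer mitochondrial membrane in apoptosis. It stood at 209.6, 227.4, 219.2 and 233.0 FPKM for wild type in 2i, at 234.1, 227.1, 222.0 and 223.2 in the knockout, and at 247.3, 250.3, 215.8 and 254.6 in FBS. The groups overlapped throughout, and neither the knockout change (0.03, SE 0.05) nor the 2i difference (-0.12, SE 0.05) passed. The limma adjusted p was 0.689 and 0.0577. Without FBS replicate 3, the lowest of its group, the 2i difference did pass (-0.17, limma adjusted p = 0.00229), as it did without wild type in 2i replicate 4 (0.0415).

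Bbc3 encodes PUMA, a BH3-only protein that releases BAX from BCL2-like inhibitors (NM_133234; mm9, chromosome 7, 16894932 to 16903683). Its levels were 18.6, 23.8, 20.2 and 21.7 FPKM for wild type in 2i, 24.0, 26.3, 19.8 and 22.8 in the knockout, and 26.3, 22.7, 26.5 and 21.6 in FBS. All 3 groups overlapped, and the limma adjusted p was 0.281 for the knockout and 0.0839 for 2i against FBS. With replicate 2 of wild type in 2i left out (0.0353), or replicate 4 of FBS (0.0432), the 2i difference passed.

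Pmaip1 encodes NOXA, another BH3-only protein, which neutralizes MCL1 (NM_021451; mm9, chromosome 18, 66618258 to 66625212). It stood at 40.0, 48.6, 42.6 and 57.0 FPKM for wild type in 2i, at 50.9, 55.8, 61.5 and 61.5 in the knockout, and at 42.8, 42.8, 43.9 and 50.0 in FBS. The knockout lay above FBS in every library but overlapped wild type in 2i, where replicate 4 reached 57.0. It rose in the knockout by 0.29 on the log2 scale (SE 0.10, limma adjusted p = 0.0314). It did not pass once wild type in 2i replicate 1 or 3 was left out (0.0972 and 0.0721) or knockout replicate 2, 3 or 4 was (0.0506, 0.0838 and 0.0823). Between 2i and FBS it did not pass (0.06, SE 0.10).

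Trp53inp1 encodes a stress protein that promotes p53 phosphorylation and autophagy (NM_021897 and NM_001199105; mm9, chromosome 4, 11083588 to 11101524). It was the only one of the 10 whose 3 groups were all apart: 57.6, 65.4, 65.0 and 71.8 FPKM for wild type in 2i, 76.2, 80.3, 73.9 and 72.9 in the knockout, and 46.2, 50.0, 46.9 and 46.3 in FBS. The order was FBS, wild type in 2i, then knockout. It rose in the knockout by 0.22 on the log2 scale (SE 0.06, limma adjusted p = 0.00861) and was higher in 2i than in FBS by 0.44 (SE 0.06, limma adjusted p = 1.9e-05).

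Ccng1 and Zmat3 showed opposite orders. Ccng1, cyclin G1, a partner of protein phosphatase 2A (NM_009831; mm9, chromosome 11, 40562054 to 40568788), stood at 62.0, 70.1, 76.7 and 74.8 FPKM for wild type in 2i. It was lower in the knockout, at 58.3, 60.4, 58.2 and 60.3, and in FBS, at 61.9, 59.3, 55.5 and 54.9. Wild type in 2i was above both other groups in all libraries, though replicate 1 cleared FBS replicate 1 narrowly, and the knockout and FBS overlapped. It fell by 0.25 on the log2 scale in the knockout (SE 0.06, limma adjusted p = 0.00594), and 2i was above FBS by 0.28 (SE 0.06, limma adjusted p = 0.00113).

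Zmat3, a zinc-finger RNA-binding protein, was the least abundant of the 10 (NM_009517; mm9, chromosome 3, 32233716 to 32264587). It stood at 14.1, 15.6, 15.1 and 15.7 FPKM for wild type in 2i, at 18.3, 18.8, 17.0 and 16.9 in the knockout, and at 17.6, 19.2, 17.7 and 16.9 in FBS. Wild type in 2i was below both other groups in all libraries, and these 2 overlapped. Zmat3 rose by 0.22 on the log2 scale in the knockout (SE 0.05, limma adjusted p = 0.00546), and 2i was below FBS by 0.22 (-0.22, SE 0.05, limma adjusted p = 0.00212).

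Phlda3 and Sesn2 followed the medium. Phlda3, whose PH-domain protein competes with AKT for membrane lipids (NM_013750; mm9, chromosome 1, 137662662 to 137665711), stood at 73.6, 88.5, 81.0 and 80.0 FPKM for wild type in 2i. The knockout held 81.6, 84.2, 73.8 and 76.4 FPKM and FBS 57.1, 45.4, 47.9 and 44.9. All 8 libraries in 2i lay above all 4 in FBS, and the 2 groups in 2i overlapped. The log2 difference between 2i and FBS was 0.72 (SE 0.08, limma adjusted p = 2.86e-06), against -0.03 (SE 0.08, limma adjusted p = 0.775) for the knockout.

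Sesn2 encodes sestrin 2, a leucine sensor that restrains mTORC1 (NM_144907; mm9, chromosome 4, 132048722 to 132066371). It stood at 57.0, 65.2, 64.9 and 62.8 FPKM for wild type in 2i, at 69.1, 68.0, 58.3 and 62.4 in the knockout, and at 41.6, 35.0, 42.8 and 40.0 in FBS. As for Phlda3, every library in 2i was above every FBS library. The log2 difference was 0.64 between 2i and FBS (SE 0.07, limma adjusted p = 3.99e-06) and 0.04 in the knockout (SE 0.07, limma adjusted p = 0.653).

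Counted over the 10 genes, the knockout did not overlap wild type in 2i for 3 (44.1% of all genes tested), and wild type in 2i did not overlap FBS for 6 (62.5%). The knockout and FBS groups, which differ in both genotype and medium, did not overlap for 5, all higher in the knockout (62.8%): Mdm2, Pmaip1, Phlda3, Sesn2 and Trp53inp1. Ordered by mean FPKM, a scale per transcript length, wild type in 2i ran from Bax (222) through Trp53 (105), Mdm2 (89.0), Phlda3 (80.8), Ccng1 (70.9), Trp53inp1 (65.0), Sesn2 (62.5) and Pmaip1 (47.0) to Bbc3 (21.1) and Zmat3 (15.1). From Trp53 to Sesn2 the ranges of neighbours in this order overlapped, whereas Bax stood clear above Trp53, and Sesn2 (57.04 to 65.2), Pmaip1 (40.0 to 57.00, so only just below), Bbc3 and Zmat3 followed without overlap. Over the 12 libraries, Bax was above 98.4% of tested genes and Zmat3 above 65.4%.

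Trp53 and Trp53inp1 each had a pair of transcript entries, and the entries of a gene did not set the groups apart alike. In wild type, both Trp53 entries had a lower mean in 2i than in FBS. These means were 24.6 against 40.1 FPKM for NM_001127233 and 80.7 against 112.9 for NM_011640. For Trp53, NM_001127233 was the smaller part: 22.6 to 26.3 FPKM for wild type in 2i, 21.6 to 23.9 in the knockout and 39.1 to 42.0 in FBS, so that FBS stood apart. NM_011640 ranged over 67.7 to 99.2, 91.3 to 108.5 and 91.0 to 127.7 FPKM, with all 3 groups overlapping. The share of NM_001127233 in the gene's FPKM was 23.5% ± 2.16, 18.2% ± 0.977 and 26.4% ± 2.70 (SD, n = 4) in the same order.

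For Trp53inp1, NM_021897 carried the differences. It lay at 40.4 to 46.1 FPKM for wild type in 2i, 49.0 to 55.2 in the knockout and 23.9 to 29.4 in FBS, with no overlap. NM_001199105 lay at 17.2 to 26.6, 20.1 to 25.2 and 20.6 to 22.4 FPKM, which overlapped in all groups. Its share of the gene was 45.1% ± 2.93 in FBS, against 32.1% ± 3.60 and 30.1% ± 3.02 (SD, n = 4) in wild type and knockout in 2i. These values rest on how Cufflinks divided fragments between entries at one locus, and the 2 entries of a gene were not tested against each other. Fitted alone, the larger Trp53 entry passed in the knockout (log2 change 0.35, SE 0.12, limma adjusted p = 0.031), which the sum did not, and was lower in 2i than in FBS (-0.48, limma adjusted p = 0.0028). The larger Trp53inp1 entry gave 0.26 in the knockout (limma adjusted p = 0.00597) and 0.74 between 2i and FBS (limma adjusted p = 4.73e-07).

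**Figure D3:**
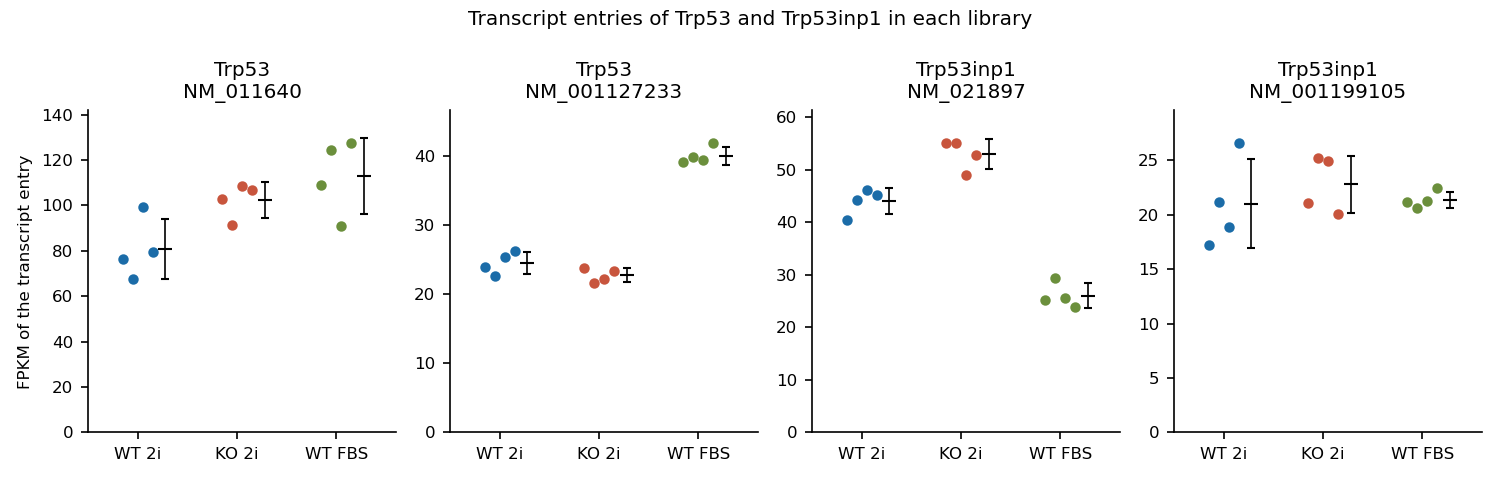
FPKM (y axis, from 0) of the transcript entries of Trp53 and Trp53inp1 in the 4 libraries of each group, with mean ± SD as bars. The smaller Trp53 entry is set apart in FBS, at 39.1 to 42.0 FPKM, and the larger Trp53inp1 entry differs between all 3 groups.

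The 118 other genes of the pathway, listed by role, were described next; 117 were in the table and 110 were tested. In the knockout 31 rose and 22 fell (48.2%, against 45.3% of all genes), and 42 were higher and 35 lower in 2i than in FBS (70.0%, against 72.4%). As a whole they were called about as often as any gene. The counts of each role list below stand against 24% of all genes that rose and 21.4% that fell in the knockout, and 37.1% higher and 35.3% lower in 2i than in FBS, and nothing particular to a list is read from them. With the fibroblast marker level in the model, the knockout calls were 3 higher and 0 lower of the regulators, 3 and 0 of the arrest targets, 1 and 5 of the apoptosis targets, 0 and 2 of the BCL2 family, 0 and 4 of the metabolism targets and 0 and 1 of the DNA repair and other targets, where 17.4% of all genes were called. The falls of the apoptosis targets include Ei24, which the model without that level did not call.

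Among 26 p53 relatives and upstream regulators, 9 rose and 3 fell in the knockout, and 7 were higher and 11 lower in 2i than in FBS. Mdm4, the partner of MDM2 that masks the p53 activation domain, rose from 23.8 ± 2.06 to 29.2 ± 2.09 FPKM (SD, n = 4; limma adjusted p = 0.0382). The groups did not overlap, but Mdm4 did not pass with wild type in 2i replicate 1, 3 or 4 left out (0.0697, 0.0933 and 0.051) or knockout replicate 1, 2 or 4 left out (0.0808, 0.0899 and 0.0855). Ube4b, a ubiquitin ligase that acts with MDM2, rose from 23.5 to 31.1 FPKM and stood at 50.2 in FBS. The acetyltransferases Ep300 (16.2 to 20.2 FPKM) and Crebbp (6.56 to 8.51) rose as well, and Kmt5a, a lysine methyltransferase of p53, was lower in 2i than in FBS (34.5 and 55.8). The p53 relative Trp73 was higher in 2i (1.81 ± 0.294 FPKM) than in FBS (1.10 ± 0.189), whereas Trp63 reached at most 0.199 FPKM in any library and was not tested. Rpl5, a ribosomal protein that can bind MDM2, passed in neither comparison (90.3, 85.7 and 88.3 FPKM).

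Of 14 cell cycle arrest targets, 7 rose and none fell in the knockout by limma (50.0% called, against 45.3% of all genes), and 4 were higher and 8 lower in 2i than in FBS. Gadd45g went from 7.44 ± 0.894 FPKM for wild type in 2i to 16.9 ± 2.86 in the knockout, with 59.3 ± 4.79 in FBS. The kinase gene Plk3 (13.3, 27.1 and 36.0 FPKM in that order) and Sfn, 14-3-3 sigma (38.9, 61.7 and 99.5), followed the same order. Cdkn1a, which encodes the CDK inhibitor p21, went the other way. It stood at 124.6, 142.6, 131.4 and 140.9 FPKM for wild type in 2i, at 116.5, 141.0, 110.7 and 129.8 in the knockout, and at 47.2, 35.2, 41.2 and 30.6 in FBS. Its mean in 2i was 3.5 times that in FBS (limma adjusted p = 2.49e-08), and the knockout change of -0.12 did not pass (limma adjusted p = 0.418). Cdkn1a, Phlda3 and Sesn2 were thus lowest in FBS, whereas Gadd45g, Plk3 and Sfn were highest there. Without knockout replicate 2, 4 of the 14 rose. Psrc1 passed in neither comparison (62.2, 68.5 and 66.9 FPKM), but did pass in the knockout without knockout replicate 3 (0.0202).

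Among 13 apoptosis targets outside the 10 genes, 3 rose and 5 fell in the knockout, and 4 were higher and 4 lower in 2i than in FBS. The death receptor gene Tnfrsf10b fell from 22.0 ± 1.83 to 16.1 ± 0.642 FPKM, with 12.3 in FBS. Dapk1, a death-associated kinase, fell from 8.70 to 4.09 FPKM, and Siva1 from 67.9 to 56.3. Eda2r, a receptor of the TNF receptor family, rose from 4.03 ± 0.967 to 9.29 ± 2.05 FPKM, and Perp, a desmosome protein, from 6.57 to 10.5; both were higher still in FBS (13.2 and 22.9). Ei24 was higher in 2i (109 FPKM) than in FBS (62.3) and did not pass in the knockout (97.4), though it did under some alternatives, among them the highest entry per symbol (0.00793) and the fibroblast covariate (0.0418). Dapk1 did not pass between 2i and FBS, except after quantile normalization (0.0363) or without wild type in 2i replicate 2 (0.0373) or FBS replicate 2 (0.0452).

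Of 10 other BCL2 family genes, 4 rose and 2 fell in the knockout, and 5 were higher and 3 lower in 2i. The inhibitor Bcl2l1 (BCL-XL) fell from 28.1 ± 1.36 to 22.5 ± 0.669 FPKM, with 20.6 in FBS. The effectors Bak1 and Bok moved apart: Bak1 rose from 30.0 to 37.5 FPKM and Bok fell from 12.1 to 8.32. Bcl2l11, which encodes the BH3-only protein BIM, stood at 3.02 ± 0.405 FPKM for wild type in 2i and 10.5 ± 0.753 in FBS; it passed in the knockout (3.50) only without wild type in 2i replicate 3 (0.0113). The BH3-only gene Bik was at 0.933, 1.47 and 3.19 FPKM in the 3 groups and rose in the knockout, a call lost without wild type in 2i replicate 1 (0.0545). Mcl1 passed in neither comparison (153, 164 and 142 FPKM), except between 2i and FBS without FBS replicate 3 (0.0103). Without wild type in 2i replicate 1, 1 of the 10 rose and 2 fell in the knockout.

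Of 18 metabolism, redox and autophagy targets, 7 fell and 2 rose in the knockout (50.0% called, against 45.3% of all genes), while 10 were higher and 2 lower in 2i than in FBS. Ddit4, an mTORC1 inhibitor, fell from 72.3 ± 11.0 to 36.2 ± 3.49 FPKM and stood at 96.9 in FBS. Gpx1, glutathione peroxidase, fell from 529 ± 29.8 to 367 ± 24.5 FPKM, and Pank1, a pantothenate kinase, from 7.53 to 3.81; in FBS they stood at 270 and 3.96 FPKM. The sestrins differed: Sesn1 was higher in 2i (11.1 FPKM) than in FBS (6.15), as Sesn2 was, and Sesn3 was lower in 2i (8.25 and 15.0). Tsc2, an mTORC1 inhibitor, rose in the knockout from 15.9 to 18.4 FPKM. Sat1, a polyamine acetyltransferase, was higher in 2i (43.5 FPKM) than in FBS (35.8), but 6 of the 12 single libraries ended that call when left out: wild type in 2i replicates 1, 2 and 4 and FBS replicates 1, 3 and 4. Leaving out either replicate 1 of wild type in 2i or replicate 3 of the knockout, 4 of the 18 fell and 1 rose.

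Of 29 DNA repair and other targets, 6 rose and 5 fell in the knockout, and 12 were higher and 7 lower in 2i. Gdf15, a stress-induced cytokine, fell from 15.2 ± 2.91 to 5.08 ± 0.892 FPKM and was at 2.89 ± 0.378 in FBS (log2 change in the knockout -1.41, SE 0.14, limma adjusted p = 6.91e-06). Tob1, an antiproliferative gene, took the same order (29.2, 18.9 and 14.9 FPKM), as did Dcxr, a sugar reductase (33.5, 23.9 and 13.1). Igfbp3, a secreted binder of insulin-like growth factors, rose from 17.4 ± 4.68 to 37.1 ± 2.37 FPKM. Pltp, a phospholipid transfer protein, rose from 47.3 to 60.2 FPKM, though not with knockout replicate 2 left out (0.063). Klf4, also a pluripotency factor, was higher in 2i (264 FPKM) than in FBS (91.9); in the knockout it did not pass (210), except without wild type in 2i replicate 3 (0.0182).

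**Figure D4:**
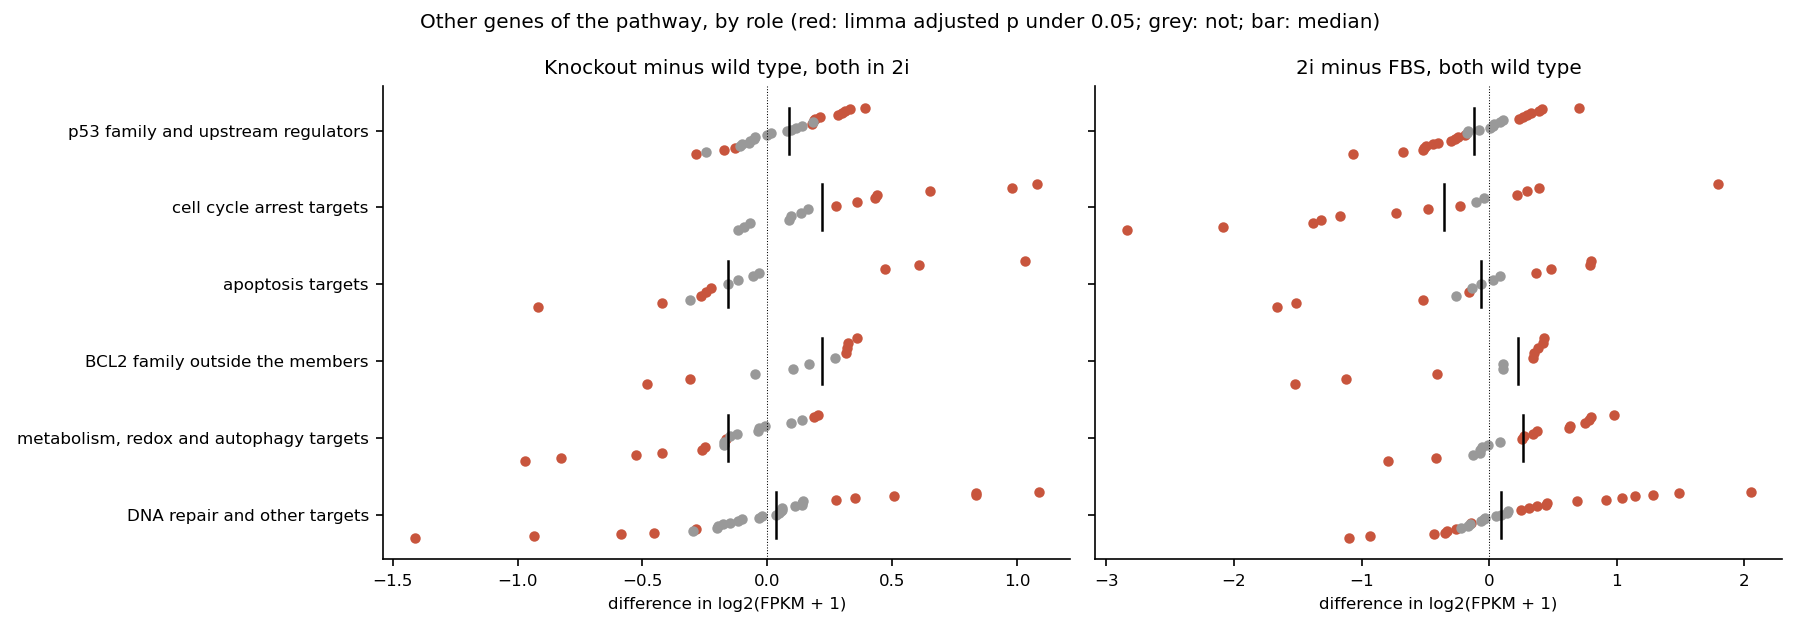
Difference in log2(FPKM + 1) (x axis) of the 110 other pathway genes tested, by role, in the knockout against wild type in 2i (left) and in 2i against FBS (right). Each point is a gene, red where the limma adjusted p was under 0.05, and the bar is the median of the list; the lists spread to both sides in both comparisons.

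The genes whose pattern over the 12 libraries was most like that of Trp53 were Dnaja1, Arglu1 and Utp20. Likeness was the root mean square difference of log2(FPKM + 1), each gene centred on its own mean, and came to 0.05, 0.07 and 0.07 for them, against a median of 0.33 over all other genes. For Mdm2 the nearest were Vps41, Kif16b and Zfp874b (0.06 each, median 0.23), and for Ccng1 they were Snx16, Prkd1 and Srgap2 (0.04, 0.07 and 0.07, median 0.26). Snx16, for example, had mean levels of 5.53 (wild type in 2i), 4.39 (knockout) and 4.17 FPKM (FBS).

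Calls were also made with the level of the 20 fibroblast markers counted above in the model. They were Col1a1, Col1a2, Col3a1, Col5a1, Col5a2, Col6a1, Col6a2, Dcn, Lum, Postn, Thy1, Pdgfra and Pdgfrb. The other markers were Fbn1, Fn1, Sparc, Loxl1, Acta2, Tagln and Twist1. With their mean log2 level added, 1 of the 10 genes was called in the knockout, Ccng1 (log2 change -0.42, SE 0.09, limma adjusted p = 0.00907), where 17.4% of all genes were called. Errors widened, as for Trp53 (SE 0.10 without and 0.17 with that level). For Bak1 the SE went from 0.06 to 0.11 while the log2 change stayed near 0.32 (0.31). A call can thus be lost through a wider error as well as a smaller change. Zmat3 kept its size with a wider error (0.24, SE 0.09, limma adjusted p = 0.102), Trp53inp1 went to 0.17 (SE 0.10, limma adjusted p = 0.303) and Pmaip1 to 0.04 (SE 0.15, limma adjusted p = 0.877). Between 2i and FBS, 4 were called (53.8% of all genes): Trp53, Phlda3, Sesn2 and Trp53inp1. Of the other pathway genes, 7 rose and 12 fell in the knockout with that level in the model. Among the named ones, the knockout call was lost for Igfbp3 (limma adjusted p = 0.0644), Tsc2 (0.0622), Bak1 (0.0816), Perp (0.119), Dcxr (0.145), Tob1 (0.149, with its log2 change at -0.38), Pltp (0.149), Mdm4 (0.405) and Bik (0.645). Between 2i and FBS it was lost for Ddit4 (0.112), Trp73 (0.2145), Sat1 (0.223) and Bok (0.5535). Markers of other cell types moved too: 4 of 8 epiblast markers rose in the knockout, where 24% of all genes tested rose. Of 9 neural markers, 5 were tested and all 5 rose. The summed level of the epiblast markers was 21.3 to 27.6 FPKM in wild type in 2i, 39.0 to 48.7 in the knockout and 203 to 257 in FBS. For the neural markers it was 12.4 to 28.3, 36.8 to 46.2 and 44.3 to 69.8 FPKM. The part of these markers in the results was not tested. In bulk RNA, fewer cells of a type and less RNA per cell cannot be told apart. None of the 10 genes lies on chromosome 6, whose genes shifted together between libraries over a range of 0.38 on the log2 scale. On the 7 chromosomes that hold the 10 genes the range was at most 0.08. The chromosome 6 shift had group means of 0.083 (WT 2i), -0.057 (KO 2i) and -0.044 (WT FBS). Nanog lies there, as do the other pathway genes Hipk2, Trim24, Gadd45a, Bid, Tigar and Xpc. By limma, Trim24 (log2 change -0.17) and Tigar (-0.26) fell with the knockout, and Gadd45a (0.44) rose. With chromosome offsets removed, the knockout comparison called 52 of the other pathway genes (main 53). That total does not show which genes kept their calls. The part of the chromosome 6 shift in the changes of Nanog, Trim24, Tigar and Gadd45a was not tested.

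**Figure D5:**
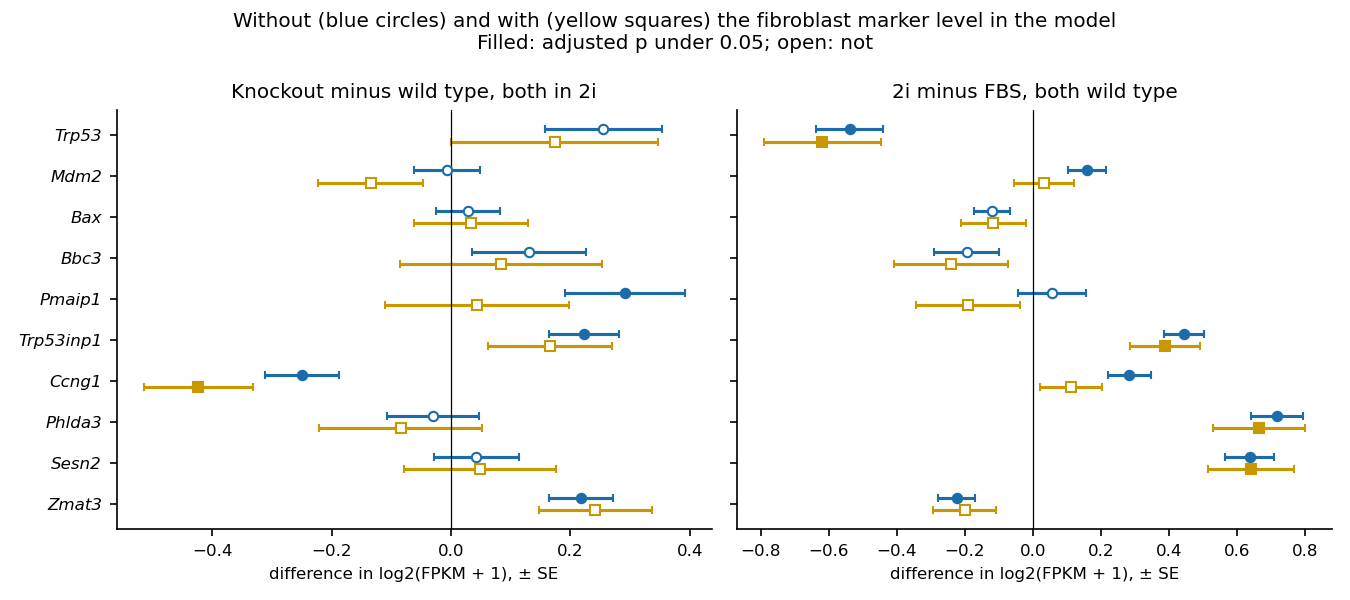
Difference in log2(FPKM + 1) with its SE (x axis) for the 10 genes, without (blue circles) and with (yellow squares) the fibroblast marker level in the model; filled symbols passed a limma adjusted p of 0.05. In the knockout (left) the filled squares come down to Ccng1 alone, and between 2i and FBS (right) Trp53, Phlda3, Sesn2 and Trp53inp1 stay filled.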

How the data were processed

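The labels' protocols give Trizol for extraction and TruSeq for library construction. The submitters' processing notes name CASAVA 1.8.2, Cufflinks without a version and the build mm9, and no aligner. FPKM per RefSeq transcript, with lower and upper bounds, are what the authors deposited; for several of the genes the bounds did not hold the value, so they were not used. Starts were converted to 1-based positions.

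The 30761 entries were summed per gene symbol (RefSeq GRCm38.p6, then GENCODE vM21 names; 98.8% had one, and the others kept their accession). Genes with a failed estimate (7, none of them listed here) were left out. FPKM keep relative but not absolute depth, so no count test was used.

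limma 3.58.1 in R 4.3.3 was fitted to log2(FPKM + 1) of all 12 libraries, with 1 mean per group and eBayes with an intensity trend; calls are two-sided with Benjamini-Hochberg adjustment over 12329 genes. The scale understates changes of low genes. Python 3.11.15, numpy 2.4.6, pandas 2.3.3 and matplotlib 3.10.9 were used.

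The 10 genes and all lists were chosen with earlier results of these data known. Named are the 10, Tfcp2l1, Cdkn1a, Mdm4, Trp63 and Trp73, and per role list the 3 genes with the smallest adjusted p and the most abundant gene that did not pass, in each comparison. Alternatives were other pseudocounts, filters, scalings, samples, variance models and thresholds, the replicate block, the highest entry per symbol, a fibroblast marker covariate, removed chromosome offsets and leaving out each library. Endoderm, epiblast, trophoblast and neural marker lists had 3, 4, 4 and 5 members higher and 1, 0, 2 and 0 lower in the knockout. In the same order, 5, 8, 9 and 5 members were tested, of 12, 8, 10 and 9 listed.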

Additional observations from a re-analysis of the deposited data

Results flagged for a closer look

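In 147 groups of 4 libraries (49 genes, 3 groups each), 7 held a library set apart from the other 3 by a gap above Dixon's critical value. Chance flags about 1 in 20 groups, which is near that number. Among the 10 p53 pathway genes there were 3. Mdm2 stood at 78.8 FPKM in wild type in 2i replicate 1, where the next library was at 91.8. Pmaip1 stood at 50.0 FPKM in FBS replicate 4, with the next at 43.9, and Trp53inp1 at 49.98 FPKM in FBS replicate 2, with the next at 46.9. The other 4 were Bak1 (19.4 FPKM in FBS replicate 2, low), Mcl1 (160.0 in FBS replicate 3, high), Bcl2l11 (3.84 in knockout replicate 3, high) and Tob1 (21.2 in knockout replicate 2, high).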

How the results depend on the processing

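Each of 25 alternatives changed the count of the 10 genes called by no more than 1.5 times, except the fibroblast marker covariate, which left 1 in the knockout comparison (main 4) and 4 between 2i and FBS (main 7). The other pathway genes called in the knockout numbered 53 in the main fit, 19 with that covariate (Ei24 among them, newly called) and 30 at a threshold of 0.01. Leaving out 1 library gave 3 to 5 and 41 to 61 calls in the knockout and 6 to 8 and 71 to 77 between 2i and FBS. With the replicate block the counts were 4, 53, 7 and 77, and among the named genes it changed the knockout call of Mdm4 (limma adjusted p = 0.0614, lost) and Ei24 (0.0177, gained) alone. The labels do not say that a number marks a shared day or batch. Same-numbered libraries gave correlations of deviations of 0.0554 to 0.258 between knockout and wild type, and 0.0266 to 0.186 between 2i and FBS. Of the wild-type libraries in 2i, replicates 2, 3 and 4 correlated best with their own number in the knockout and replicate 1 with knockout replicate 3 (0.154). Against FBS, only replicates 2 (0.119) and 4 (0.186) did so with their own number. There, replicate 1 correlated best with FBS replicate 3 (0.114) and replicate 3 with FBS replicate 4 (0.069).

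The signs that turned were those of changes not called. In the knockout these were Mdm2 (0.018 as TPM, 0.0399 after quantile normalization; -0.01 main), Bax (-0.0053 with chromosome offsets removed), Phlda3 (0.011 after quantile normalization), Kmt5a (-0.0031 with offsets removed), Trp73 (-0.053 with the covariate) and Sesn1 (0.014 as TPM, 0.011 after quantile normalization and 0.14 by the highest entry). Between 2i and FBS they were Pmaip1 (-0.19), Siva1 (-0.047) and Tsc2 (0.011) with the covariate, and Tsc2 by the highest entry (0.27, limma adjusted p = 0.00627, which passed). Leaving out 1 library gave ranges across 0 in the knockout for Mdm2 (-0.064 to 0.023), Phlda3 (-0.074 to 0.014), Sesn2 (-0.00014 to 0.089), Sat1 (-0.12 to 0.027) and Sesn1 (-0.073 to 0.079). Between 2i and FBS the ranges were -0.039 to 0.13 for Pmaip1, -0.0072 to 0.059 for Siva1 and -0.025 to 0.0103 for Tsc2. The cause was not tested. Absolute depth is unknown, so no counting error stands beside a level.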
